A study of Mus musculus with 61 samples.

Results

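The 10 genes Avp, Oxt, Hcrt, Pmch, Agrp, Trh, Ghrh, Gal, Cartpt and Gnrh1 encode neuropeptides that are made by neurons of the hypothalamus. They were chosen by name, out of 16358 genes with a probe that could be named, and each was followed with 1 probe over all 61 fractions of 6 mouse brains. All 10 genes have a probe on the array, and 11 probes in all, since Cartpt has 2 probes, of which the one with the higher mean signal was used. Avp (vasopressin) and Oxt (oxytocin) are released from the posterior pituitary, Hcrt (orexin) and Pmch (melanin-concentrating hormone) act in arousal and feeding, Agrp and Cartpt act in feeding, and Trh, Ghrh and Gnrh1 drive the anterior pituitary.

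A neuropeptide is cut from a precursor protein, packed into dense-core granules and released from the axon, so its mRNA marks the cell body that makes it. In the hypothalamus these cell bodies lie in small paired nuclei at the base of the brain, on both sides of the midline. Hcrt and Pmch neurons lie in the lateral hypothalamus, away from the midline, Agrp and Ghrh neurons in the arcuate nucleus beside it, and Avp and Oxt neurons mainly in the paraventricular and supraoptic nuclei. Trh, Gal, Cartpt and Gnrh1 are also made by neurons outside the hypothalamus, among them neurons of the olfactory bulb (Trh), of the locus coeruleus in the pons (Gal), of the midbrain (Cartpt) and of the septum (Gnrh1).

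Each fraction held 200 frozen sections of 5 µm, which is 1 mm of brain, from male C57BL/6J mice of 8 weeks, and its RNA was hybridised to 1 single-colour array of whole mouse genome probes. The 6 series are 1 mouse each: S with 9 fractions from left to right, which the labels number 2 to 10 and which are named S1 to S9 here, C with 13 from posterior to anterior and H with 6 from dorsal to ventral, and So with 10, Co with 16 and Ho with 7 fractions cut in the same 3 planes at a slight tilt. The study matched 56 of the fractions into 28 pairs, 1 fraction from each of the 2 mice of a plane, named s1 to s9, c1 to c13 and h1 to h6, and it chose these pairs by the correlation of the same arrays, which keeps the spread within pairs small. Each plane thus has 2 mice and each place 2 arrays, and a fraction mixes every cell type in 1 mm of brain, so fewer cells of a type and less mRNA per cell cannot be told apart.

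Over the 61 arrays, between 57.9% and 73.1% of probes were well above background, 0 probes were saturated, and the signal at the 75th percentile of probes ran from 740 to 1971 units. Levels are given below as relative intensity, the background-subtracted signal divided by the 75th percentile of its array, so that 1 equals that percentile. The levels of different probes cannot be ranked against each other, so every comparison is of 1 gene across fractions. The orientation of the series was checked on marker genes: the summed level of the rostral markers was highest in C13 and Co15, that of the caudal markers in C3 and Co5, and that of the dorsal markers in H1 and Ho1. The label of a hypothalamic gene group was set beside 18 measured transcription factors of the developing or adult hypothalamus, whose summed level was highest in S5, So7, C8, Co9, H6 and Ho6. This sum rests mostly on the brighter probes, so it is only a rough check. Single factors did not all peak there: along the coronal axis Nkx2-1 was highest in C10 and Co11, and Lhx9 was highest in C5, Co6, H2 and Ho3.

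The promoters of Avp and Oxt and of Hcrt and Pmch are shown because each pair of genes had the most similar profiles among the members, as given below. The sequences are the 250 bases before the annotated start of transcription in RefSeq, build GRCm38.p6, written 5′ to 3′ on the strand of the gene, and capitals mark motifs found on either strand: the TATA box TATAAA and its variant CATAAA, the nuclear receptor element AGGTCA, the AP-1 core TGANTCA, the cAMP response element TGACGTCA and the homeobox core TAATTA. The Avp window is chr2:130582589-130582838 on the minus strand, the Oxt window chr2:130575919-130576168 on the plus strand, the Hcrt window chr11:100762932-100763181 on the minus strand, and the Pmch window chr10:88090822-88091071 on the plus strand.
Avp: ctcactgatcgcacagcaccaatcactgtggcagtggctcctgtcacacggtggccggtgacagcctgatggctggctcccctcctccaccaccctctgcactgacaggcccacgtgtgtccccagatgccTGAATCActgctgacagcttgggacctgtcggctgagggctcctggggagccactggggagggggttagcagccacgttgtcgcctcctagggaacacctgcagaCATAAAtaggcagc
Oxt: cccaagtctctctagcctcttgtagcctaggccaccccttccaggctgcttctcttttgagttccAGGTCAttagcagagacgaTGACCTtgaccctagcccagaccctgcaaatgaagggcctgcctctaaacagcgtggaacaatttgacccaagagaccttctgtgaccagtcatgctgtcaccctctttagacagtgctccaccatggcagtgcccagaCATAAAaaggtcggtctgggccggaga
Hcrt: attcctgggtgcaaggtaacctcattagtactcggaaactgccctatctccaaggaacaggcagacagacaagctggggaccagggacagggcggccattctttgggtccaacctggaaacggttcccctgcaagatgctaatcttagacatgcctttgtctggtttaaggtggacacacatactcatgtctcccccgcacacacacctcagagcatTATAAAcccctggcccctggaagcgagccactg
Pmch: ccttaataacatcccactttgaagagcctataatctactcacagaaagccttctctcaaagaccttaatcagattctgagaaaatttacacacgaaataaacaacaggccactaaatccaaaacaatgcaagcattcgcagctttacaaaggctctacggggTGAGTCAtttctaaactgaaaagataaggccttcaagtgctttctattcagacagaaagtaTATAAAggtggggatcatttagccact

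Hcrt and Pmch both hold TATAAA shortly before the start, with its last base 28 and 22 bases from it, and 12.4% of the 32851 promoter windows of this length in the table hold that motif. Avp and Oxt hold CATAAA instead, a motif added after the sequences were seen, which 10.8% of windows hold. Its last base is 9 bases from the start in Avp and 22 in Oxt, so the Avp match lies nearer the start than those of Oxt, Hcrt and Pmch. TGANTCA, the core of an AP-1 site, was found in the windows of Avp and Pmch and in 6.75% of all windows, and AGGTCA, an element bound by nuclear receptors, was found at 2 places in the Oxt window and in 14.0% of all windows. TGACGTCA, a cAMP response element held by 1.55% of windows, was found in the Cartpt window, and TAATTA, held by 4.84% of windows, at 2 places in 1 of the 2 Ghrh windows. AGGTCA also matched in the Trh window and in both Ghrh windows, TATAAA in 1 Ghrh window, and none of the 6 motifs in the Gal window. A match is a description of these letters and says nothing on whether a factor binds there.

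**Figure D1:**
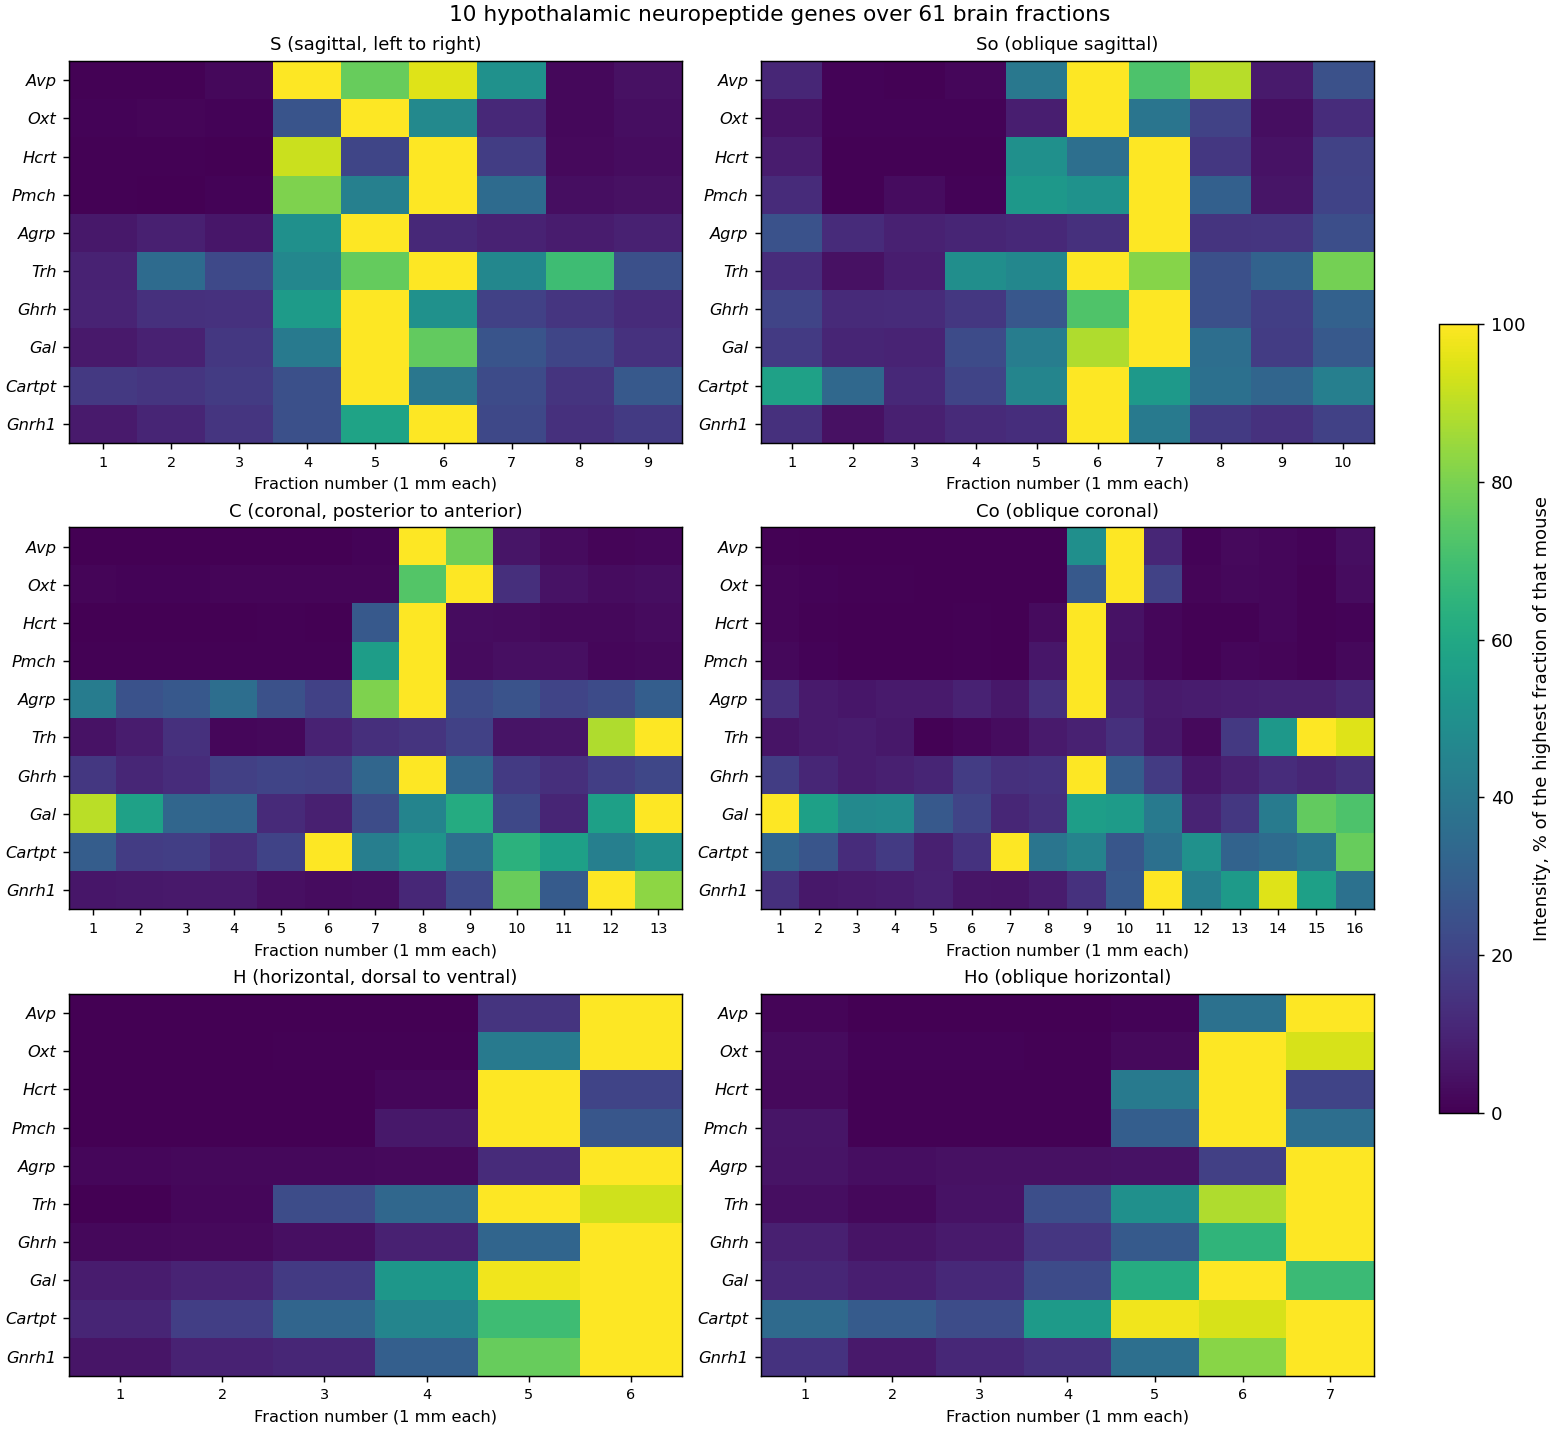
Relative intensity of each of the 10 genes in every fraction, as a percentage of the highest fraction of the same mouse, in 6 panels with 1 panel per mouse. The x axis is the fraction number, 1 mm each, and the colour runs from 0 to 100%. Every gene reaches 80% of the peak in 1 or 2 fractions of a series, apart from Cartpt with 3 in Ho. Trh, Gal, Cartpt and Gnrh1 have further high fractions along the coronal axis.

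All 10 genes varied over the 28 fraction pairs (limma moderated F test, Benjamini-Hochberg adjustment), against 61.3% of the 36573 probes tested, and all 10 did so with mouse as a block, against 86% of probes. Avp had the largest F of the members (F = 47.1, adjusted p = 1.46e-15) and Agrp the smallest (F = 4.78, adjusted p = 0.000125). The median F of the members was 22.3, and that of all probes tested was 2.58. From the lowest to the highest fraction, Avp spanned 13.4 log2 units, where the median probe spanned 2.13, but its lowest fraction, Co3, was not well above background and so gives only a bound. Within the sagittal plane alone, where 6.59% of all probes passed, Agrp (adjusted p = 0.752) and Trh (adjusted p = 0.101) did not pass the test. All 10 passed within the coronal plane, where 37.7% of probes did, and within the horizontal plane, where 12.6% did.

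The difference between the mice of a plane was tested in the same way with the pairs in the model. Each place has 2 arrays of 2 mice, so the main fit measures the spread between mice within pairs, pooled over the pairs of all 3 planes. The mouse test takes the mean difference of each plane out of that spread. Its p-values thus rest on how the difference varies from pair to pair, with 1 mouse on each side. They do not cover the variation among mice. The 2 mice of a plane also differed in the tilt of the cut and mostly in slide. Nearly all sagittal and all coronal fractions differed in scan day too. A difference between mice therefore cannot be told apart from one of tilt, slide or, in those 2 planes, scan day. By limma's F test over the 3 planes, 0 of the 10 genes differed between mice at an adjusted p under 0.05, where 63.1% of all probes did, and 1 of the 10, Gnrh1, had an unadjusted p under 0.05 (p = 0.0361, adjusted p = 0.0564, limma). Leaving out 1 array at a time, 10 of the 56 arrays gave a call for Gnrh1 and 2 for Pmch, the lowest adjusted p being 0.00608 and 0.0381. In the coronal plane alone, Gnrh1 was higher in Co than in C by 0.28 ± 0.12 (log2, SE, adjusted p = 0.049, limma), and it was the 1 member called there, against 53.4% of probes. No member was called between S and So, against 29.9% of probes, or between H and Ho, against 5.52%. A p that misses the threshold does not show equal levels, and the SE of these differences was as wide as 0.49 for Hcrt in the horizontal plane.

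The horizontal contrast set the 2 ventral pairs h5 and h6 against the 4 dorsal pairs h1 to h4, since the hypothalamus lies at the base of the brain. All 10 genes were higher ventrally at an adjusted p under 0.05, where 6.21% of all probes were, and 0 were lower, where 4.32% of all probes were. The median difference was 3.71 (log2) over the members and −0.01 over all probes. The order of the differences ran from Avp at 8.02 ± 0.45 (log2, SE, adjusted p = 3.43e-13, limma), a 260-fold difference, through Oxt at 6.77 ± 0.38, Pmch at 6.06 ± 0.52 and Hcrt at 5.72 ± 0.54, to Cartpt at 1.50 ± 0.17 (adjusted p = 3.08e-07). In 8 of the 10 genes, every ventral fraction was above every dorsal fraction of the same mouse in both mice. The exceptions were Hcrt and Cartpt in the mouse Ho, where fraction Ho5, counted as dorsal, reached 6.16 for Hcrt and 4.67 for Cartpt. The share of all probes that separate in this way was not computed, so the 8 have no background to stand against.

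**Figure D2:**
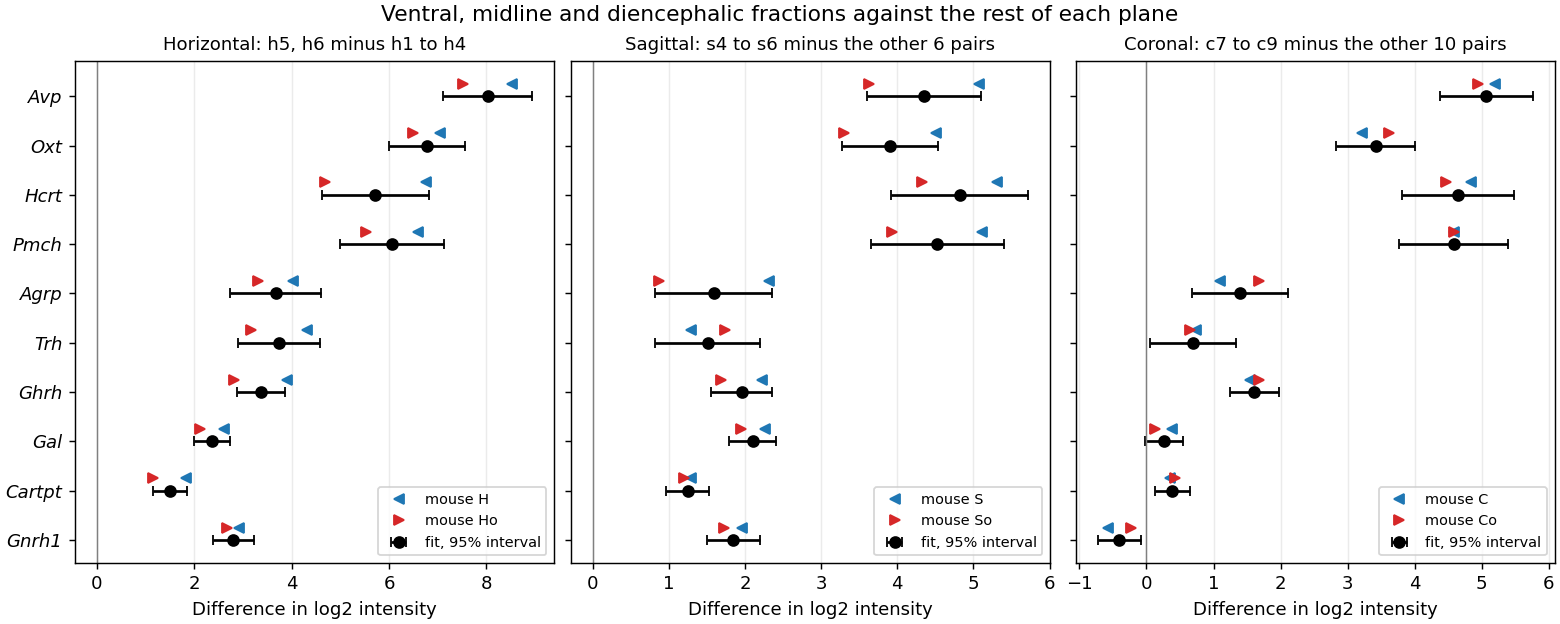
Difference in log2 intensity between the fractions named in each panel title and the other paired fractions of the same plane, per gene; black points are the limma fit over both mice with its 95% interval and triangles the 2 mice of the plane. All 10 points lie above 0 in the horizontal and sagittal panels, and in the coronal panel Gnrh1 lies at −0.41 and Gal at 0.26.

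The sagittal contrast set the 3 middle pairs s4 to s6 against the 6 outer pairs. All 10 genes were higher in the middle, against 7.67% of all probes, and 0 were lower, against 6.26%, with a median difference of 2.03 (log2) over the members and 0.02 over all probes. The largest difference was that of Hcrt at 4.82 ± 0.44 (log2, SE, adjusted p = 3.08e-09, limma) and the smallest that of Cartpt at 1.25 ± 0.14 (adjusted p = 1.05e-07). The call for Agrp rested on fraction S5: with S5 the difference was 1.59 ± 0.38 (adjusted p = 0.00317) and without it 1.04 (adjusted p = 0.0517). In all 10 genes both mice differed in the same direction, but only Hcrt, Pmch and Gal had no overlap between middle and outer fractions in both S and So. The share of all probes without such overlap was not computed.

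The coronal contrast set pairs c7 to c9 against the other 10 coronal pairs. These pairs were taken as the level of the diencephalon by the place of c8 in the series. Hcrt, Pmch, Agrp and Ghrh themselves peaked in pair c8, and the contrast was chosen with earlier results of these data known. The counts of members below are therefore a description and not an independent test of place. At an adjusted p under 0.05, 7 of the 10 genes were higher, where 12.7% of all probes were, and 0 were lower, where 12% of all probes were. The 7 were Avp at 5.07 ± 0.34 (log2, SE), Hcrt at 4.65 ± 0.41, Pmch at 4.58 ± 0.40, Oxt at 3.42 ± 0.29, Ghrh at 1.61 ± 0.18, Agrp at 1.39 ± 0.35 and Cartpt at 0.39 ± 0.13, with adjusted p-values of limma from 7.33e-13 for Avp to 0.0243 for Cartpt. Leaving out any 1 of the fractions C9, Co8, Co9 and Co10 ended the call for Cartpt, with adjusted p-values up to 0.0964. Trh (0.69 ± 0.31, adjusted p = 0.114), Gal (0.26 ± 0.14, adjusted p = 0.197) and Gnrh1 (−0.41 ± 0.16, adjusted p = 0.056) did not pass the test. With mouse as a block in the model, which the paired design allows, Gnrh1 passed in the lower direction at the same −0.41 (adjusted p = 0.022), and it also passed so when any of 12 single arrays was left out, the adjusted p running from 0.0118 to 0.344 over all 56 arrays left out in turn. With pair c6 counted beside c7 to c9, Gnrh1 was at −1.01 (adjusted p = 1.42e-06, limma) and Gal turned to −0.41 (adjusted p = 0.0146). Gnrh1 also passed as lower with slide as a random block (−0.42, adjusted p = 0.0392) and with scan day as a block (−0.36, adjusted p = 0.0339). Without the first and last pair of each plane, Trh (1.11, adjusted p = 0.00427) and Gal (0.59, adjusted p = 0.00248) passed in the higher direction. Both mice differed in the same direction in all 10 genes, downwards in Gnrh1, but only Hcrt had every fraction of c7 to c9 above every other paired coronal fraction in both mice. Over the 20 values of 10 genes in 2 mice, 5 had no overlap, and Avp and Oxt overlapped in both mice. Here too, the share of all probes without overlap was not computed.

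Avp, the vasopressin precursor, reached 44.7 in the most ventral fraction H6 of the mouse H, against a median of 0.0714 over its 6 fractions and a lowest value of 0.0277 in H2. In Ho it reached 22.0 in Ho7, with a median of 0.257 and a lowest value of 0.0432 in Ho2. H5 at 6.70 and Ho6 at 8.18 were next in the 2 mice, and no other horizontal fraction was above 0.303. Along the coronal axis Avp was high in adjoining fractions, at 9.91 in C8 and 7.77 in C9, and at 8.83 in Co9 and 17.7 in Co10. The medians of the 2 coronal series were 0.0843 and 0.153, and the probe was not well above background in C1, C3 and Co3, where its level is a bound. Pairs c9 and c8 overlapped between the mice, so their order is open, while c8 was above the next pair in both mice, by 3.15 (log2) between the pair means.

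In the sagittal series, Avp was spread over 4 fractions: 6.53 in S4, 5.00 in S5, 6.20 in S6 and 3.29 in S7, with a lowest value of 0.0351 and a median of 0.281. In So the highest values were 5.11 in So6, 4.55 in So8 and 3.69 in So7, with a lowest value of 0.0386 and a median of 0.916. The peak thus lay to the side of the midline in S and in the middle in So, and pairs s4 to s6 were not separated in order.

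Oxt, the oxytocin precursor, was highest in S5 at 10.7 (lowest 0.0951, median 0.379) and in So6 at 9.19 (lowest 0.0936, median 0.606). These 2 fractions are partners in pair s5, which was above the next pair in both mice, by 1.22 (log2) between the pair means. The nearest fractions fell to 5.07 in S6 and 3.56 in So7, so that Oxt was narrower across the midline than Avp: 1 fraction of S reached 80% of the peak, against 2 for Avp. Along the coronal axis Oxt peaked in C9 at 5.86 (lowest 0.0589, median 0.0906) and in its partner Co10 at 17.8 (lowest 0.0462, median 0.195). In the horizontal series it reached 24.5 in H6 and 10.1 in H5, but 10.1 in Ho7 and 10.7 in Ho6, so the order of h5 and h6 differed between the mice.

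Over the 61 fractions the log2 levels of Avp and Oxt had a Pearson r of 0.958, and within the 6 mice r ran from 0.939 to 0.992. Fractions of 1 brain share a mouse, a plane and slides of arrays, so this r is a description. In the RefSeq table the 2 genes lie side by side on chromosome 2, on opposite strands.

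**Figure D3:**
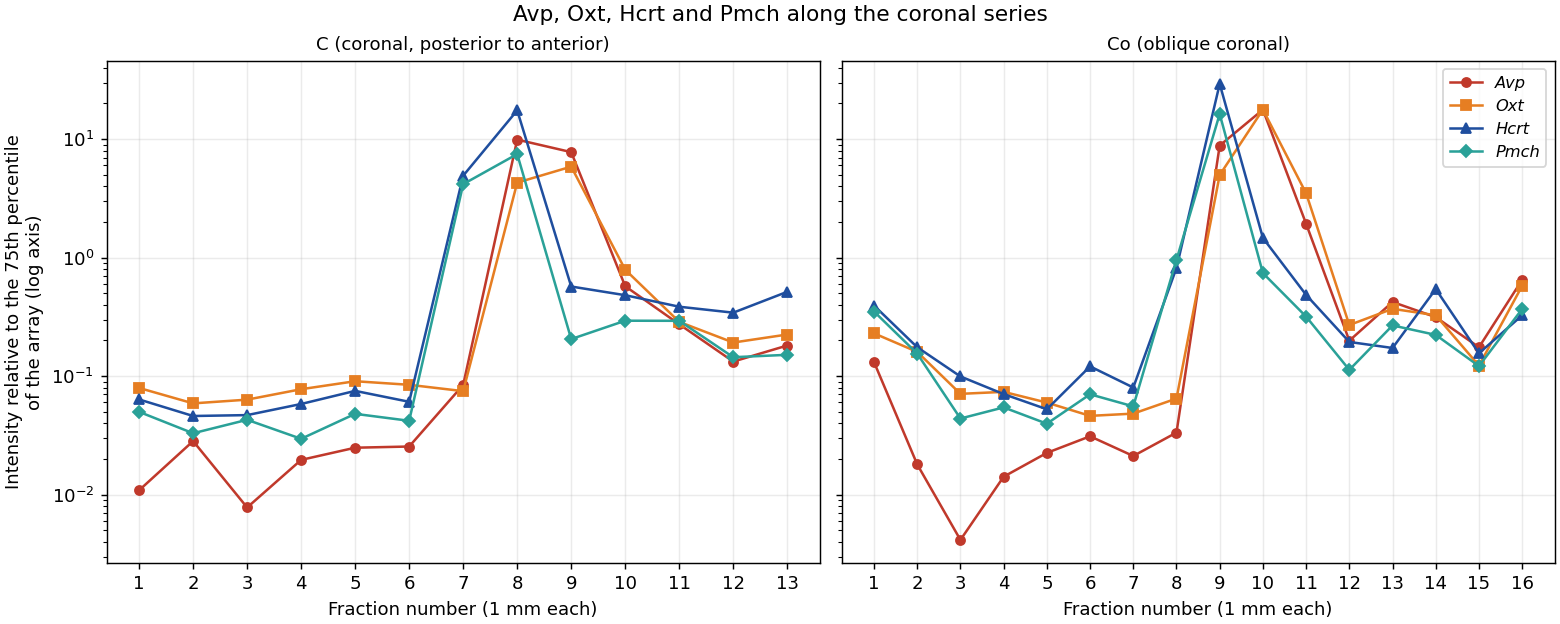
Relative intensity (log axis) of Avp, Oxt, Hcrt and Pmch along the 13 fractions of C and the 16 fractions of Co, 1 point per fraction, 1 array each; the heights of different genes cannot be compared. Hcrt and Pmch peak in C8 and Co9, Oxt in C9 and Co10 and Avp in C8 and Co10, and the fractions numbered after the peak sit above most of those before it.

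Hcrt, the orexin precursor, reached 29.3 in Co9, 85.0% of its summed level over the 16 fractions of that mouse, against a lowest value of 0.0525 and a median of 0.185. The next fraction, Co10, was at 1.47, which is 20.0-fold lower. In C it reached 17.5 in C8 and 4.91 in C7, with a lowest value of 0.0461 and a median of 0.343. Fractions C8 and Co9 are partners in pair c8, which was above the next pair in both mice, by 3.50 (log2) between the pair means.

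Pmch, the precursor of melanin-concentrating hormone, followed the same fractions: 16.3 in Co9 (80.8% of its summed level, lowest 0.0397, median 0.189) and 7.48 in C8 with 4.17 in C7 (lowest 0.0296, median 0.144). In both genes C7 was high and its partner Co8 was not, at 0.819 for Hcrt and 0.958 for Pmch, and the SD within pair c7 was 1.83 and 1.50 (log2, n = 2). In the horizontal series both genes peaked a fraction above the most ventral one, Hcrt at 20.9 in H5 and 14.9 in Ho6, and Pmch at 8.52 in H5 and 8.47 in Ho6. In H6 and Ho7 Hcrt was at 4.25 and 3.06 and Pmch at 2.29 and 3.05. Pair h5 was above h6 in both mice in both genes, whereas Avp had h6 above h5 in both mice.

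Across the midline Hcrt had a dip. It was at 11.3 in S4, 2.55 in S5 and 12.3 in S6, so that the flanking fractions were 4.42-fold and 4.81-fold above the middle one, and the lowest value was 0.0467 with a median of 0.412. In So it was at 5.56 in So5, 4.03 in So6 and 11.1 in So7, with flanks 1.38-fold and 2.75-fold above So6 (lowest 0.0718, median 1.31). Pmch had the same form in S, at 5.96, 3.21 and 7.39 in S4 to S6 (lowest 0.0182, median 0.330). In So its levels were 3.98, 3.82 and 7.47 in So5 to So7 (lowest 0.0481, median 1.21), so the left flank was 1.04-fold above the middle. In both genes pair s4 and pair s6 were above s5 in both mice. Oxt had flanks at 0.259 and 0.473 of its S5 level. Hcrt and Pmch had the highest r of the 45 pairs of members, 0.973 over the 61 fractions and from 0.970 to 0.982 within the 6 mice, and both peaked in partner fractions in all 3 planes.

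**Figure D4:**
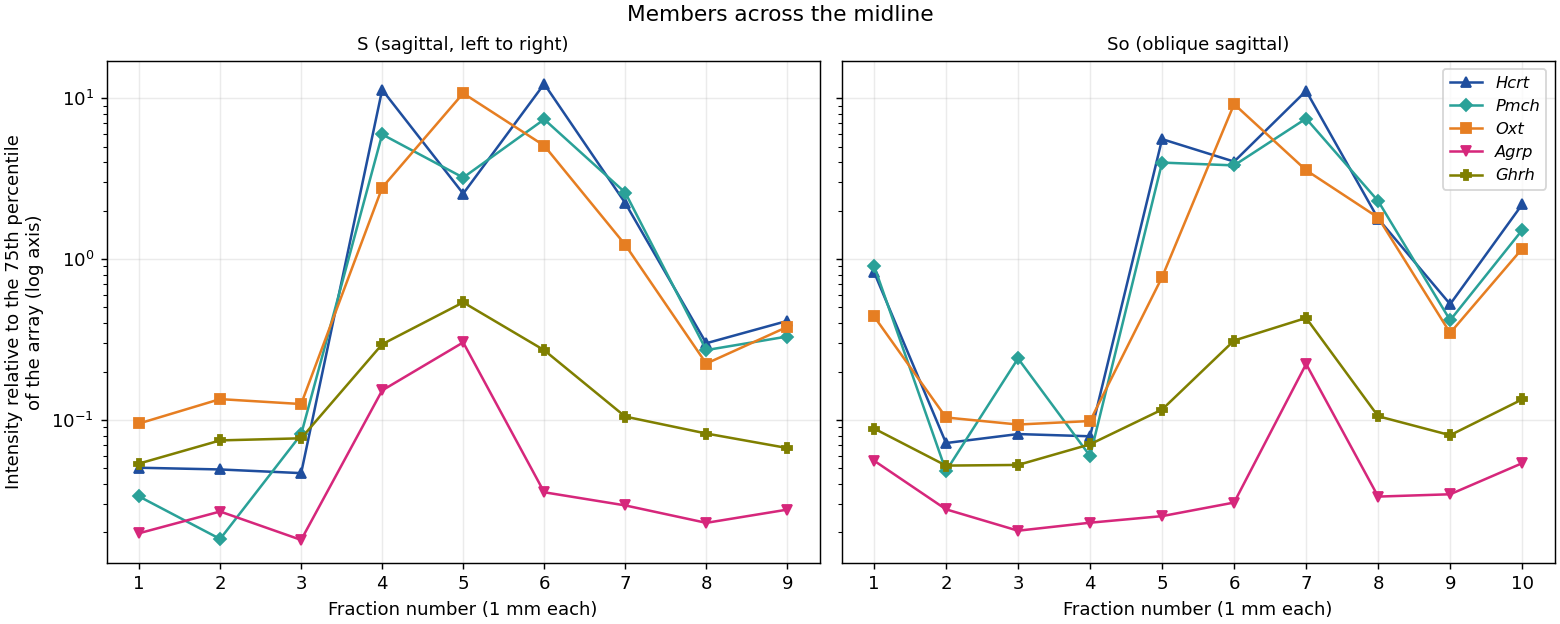
Relative intensity (log axis) of Hcrt, Pmch, Oxt, Agrp and Ghrh across the 9 fractions of S and the 10 fractions of So from left to right, 1 point per fraction; the heights of different genes cannot be compared. Hcrt and Pmch are higher in S4 and S6 than in S5, where Oxt, Agrp and Ghrh have their peak, and in So the outermost fractions So1 and So10 lie above their neighbours for Hcrt, Pmch and Oxt.

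Avp, Oxt, Hcrt and Pmch had raised levels outside their coronal peaks, on 1 side of the series more than on the other. In C, the fractions 3 or more after the peak (C11 to C13) had Hcrt between 0.343 and 0.515, and those 3 or more before it (C1 to C5) between 0.0461 and 0.0751, a 6.62-fold difference of the medians. In the same comparison all later fractions were above all earlier ones for Pmch (3.54-fold), Avp (9.23-fold) and, with C12 and C13 against C1 to C6, Oxt (2.65-fold). In Co the later fractions were again higher in the median, 1.76-fold for Hcrt, 3.57-fold for Pmch, 17.4-fold for Avp and 4.91-fold for Oxt, but only for Avp without overlap. Ghrh (1.16-fold in C, 1.03-fold in Co) and Agrp (0.823-fold in C, 1.18-fold in Co) overlapped on both sides in C and Co. These fractions were picked after their values were seen and were not tested. The medians of the later fractions were at most 3.55% of the peak in C (Oxt) and 2.08% in Co (Avp).

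Fractions at the ends of the tilted series were set against their neighbours, after the values were seen and without a test. Pmch was at 0.909 in So1 and 0.0481 in So2, at 0.476 in Ho1 and 0.0438 in Ho2, at 0.351 in Co1 and 0.155 in Co2, at 0.369 in Co16 and 0.122 in Co15, and at 1.51 in So10 and 0.417 in So9. Over these 5 comparisons the end fraction was 2.27-fold to 18.9-fold higher for Pmch, 2.09-fold to 11.6-fold for Hcrt, 3.53-fold to 10.6-fold for Avp and 1.43-fold to 4.72-fold for Oxt. Agrp and Ghrh (1.24-fold to 2.01-fold) and Cartpt (1.22-fold to 1.95-fold) were also higher in all 5 end fractions. Gnrh1 was 3.14-fold higher in So1, 2.14-fold in Co1 and Ho1, and 0.655 of its neighbour in Co16, and Trh was 2.75-fold higher in So1 and 2.52-fold in So10, and 0.741 of its neighbour in Co1. In the straight series, the ratios of S9, C1, C13 and H1 to their neighbours ran from 1.04 to 1.96 for Avp, Oxt, Hcrt and Pmch, leaving out Avp in C1, which was not well above background. At the other end, S1 was at 1.23 of S2 for Avp, 0.706 for Oxt, 1.03 for Hcrt and 1.84 for Pmch. The Pmch probe was not well above background in S2.

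Marker levels moved at the ends of both kinds of series. The summed level of the 3 blood markers was highest in So10 (29.6) and Co1 (30.5) of their series, and also in C1 (53.7). It was highest too in H6 (18.5) and Ho7 (26.9), the fractions where Avp, Agrp, Ghrh, Cartpt and Gnrh1 peaked. The summed level of the 8 meningeal markers was highest in C1 (50.9), Co16 (104), H6 (50.5) and Ho7 (37.7), but in S3 and So8 in the sagittal series. That of the 3 dorsal markers was highest in So1 (23.1), Co1 (17.2) and Ho1 (20.2), and also in S9 (11.2), C1 (11.8) and H1 (18.4). That of the 8 brain tissue markers was lowest in So1 (221), Co16 (163) and Ho1 (203), and also in S1 (211) and H1 (182). The part of these in the levels of the members was not tested. So1, Co1, Co16 and Ho1 have no partner and entered no test.

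Agrp, the agouti-related peptide of arcuate feeding neurons, was highest in H6 at 0.799 (lowest 0.0136, median 0.0190) and in Ho7 at 0.571 (lowest 0.0211, median 0.0279). H5 and Ho6 were next, at 0.0968 and 0.109. Along the coronal axis it peaked in the partners C8 at 0.122 (lowest 0.0237, median 0.0311) and Co9 at 0.429 (lowest 0.0263, median 0.0366), and C7 at 0.0981 was nearly as high as C8. In the sagittal series it was at 0.303 in S5 and 0.153 in S4 (lowest 0.0180, median 0.0277), and in So at 0.223 in So7 with 0.0559 in So1 as the next (lowest 0.0205, median 0.0320). The peak fractions S5 and So7 are not partners, and the SD within pair s5 was 2.34 (log2, n = 2). The probe was dim, with signals from 14.9 to 928 units, and not well above background in S1 and in So2 to So5.

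Ghrh, growth hormone-releasing hormone, had its peak in the same fraction as Agrp in all 6 mice: 1.25 in H6, 0.568 in Ho7, 0.516 in C8, 0.871 in Co9, 0.538 in S5 and 0.430 in So7. Its medians in these mice lay between 0.0823 and 0.114 and its lowest values between 0.0272 and 0.0562. The Pearson r of Ghrh and Agrp over the 61 fractions was 0.857. Of the 10 members, Ghrh was the 1 gene that had a single fraction at 80% or more of the peak in every mouse.

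Pomc, the precursor of the melanocortins and of ACTH, is made in the arcuate nucleus and in the pituitary. It was the gene most like Agrp (r = 0.910 over 61 fractions, of 13746 genes compared) and peaked in the same 6 fractions, with 7.13 in H6 and 3.64 in Ho7. Cga, the alpha subunit of the pituitary glycoprotein hormones, was the next most like Agrp (r = 0.792) and peaked in these 6 fractions too, at 1.13 in H6 against a median of 0.00776 in that mouse. The summed level of the 9 measured pituitary markers was highest in those fractions as well, from 0.668 in S5 to 1.85 in H6, with series medians between 0.268 and 0.426. Of these markers, growth hormone, Gh, was well above background in 18 of 61 fractions with its highest level of 0.147 in H6, prolactin, Prl, in 22 with its highest level of 0.351 in C8, and Pou1f1, which defines the cells that make both, in 2. Cga was well above background in 19 fractions, so its differences rest in part on background levels in the low group. As fitted, it was higher ventrally by 3.78 ± 0.86 (log2, SE, adjusted p = 0.00353, limma) and in pairs c7 to c9 by 3.21 ± 0.66 (adjusted p = 0.000333). The part of pituitary tissue in the levels of Agrp and Ghrh was not tested.

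Trh, the precursor of thyrotropin-releasing hormone, was highest at the anterior end: 4.84 in C13 and 4.26 in C12 (lowest 0.0884, median 0.460), and 5.76 in Co15, 5.48 in Co16 and 3.07 in Co14 (lowest 0.0324, median 0.416). A second, smaller rise lay at the level of the other members, at 0.934 in C9 and 0.807 in Co10. Pair c13 was above c12 in both mice, by 0.55 (log2) between the pair means, and c12 above the next pair, by 2.06 between the means. In the horizontal series Trh was high in both ventral fractions, 1.74 in H5 and 1.62 in H6 (lowest 0.00635 in H1, where the probe was not well above background, median 0.492) and 1.50 in Ho6 and 1.70 in Ho7 (lowest 0.0339, median 0.406). In the sagittal series it was highest in S6 at 0.876 (lowest 0.0848, median 0.404) and So6 at 1.15 (lowest 0.0531, median 0.447), and So10 at 0.909 and S8 at 0.604 were high too. The genes most like Trh were Esyt3 (r = 0.837), Th (r = 0.827), which encodes the tyrosine hydroxylase of dopamine synthesis, and 1700012B09Rik (r = 0.813). Th peaked in C13 and Co15, as Trh did.

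**Figure D5:**
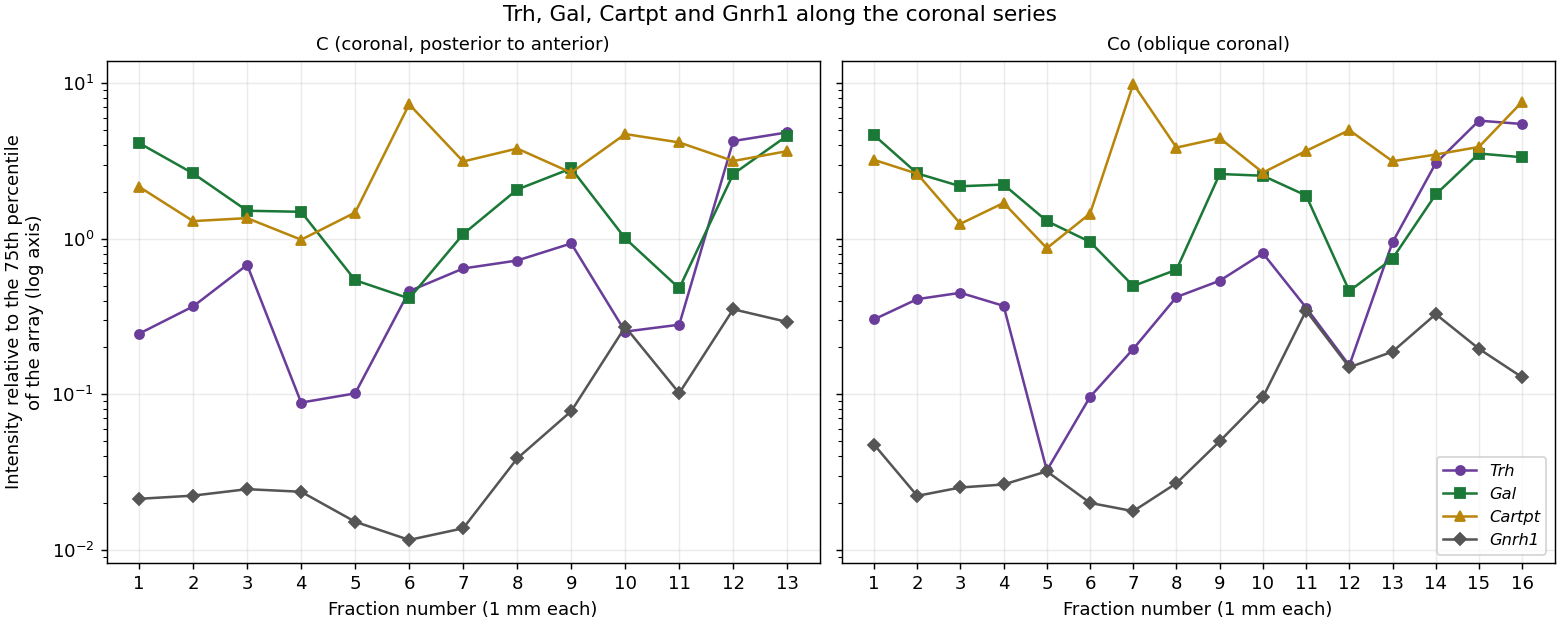
Relative intensity (log axis) of Trh, Gal, Cartpt and Gnrh1 along the 13 fractions of C and the 16 fractions of Co from posterior to anterior, 1 point per fraction; the heights of different genes cannot be compared. Trh is highest at the anterior end, Gal at both ends and near C9 and Co9, Cartpt in C6 and Co7, and Gnrh1 in several fractions from C10 and Co11 on.

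Gal, the galanin precursor, had 3 high regions along the coronal axis. At the posterior end it was at 4.13 in C1 and 4.65 in Co1, at the anterior end at 4.61 in C13 and 3.54 in Co15, and between them at 2.84 in C9 and 2.61 in Co9. The lowest values were 0.413 in C6 and 0.462 in Co12, and the medians 1.52 and 2.06. The peak fractions were C13 and Co1, which are not partners, and pairs c13 and c1 overlapped, so their order is open. Gal was highest near the midline, at 4.55 in S5 and 3.46 in S6 (lowest 0.317, median 0.948) and at 3.59 in So7 and 3.16 in So6 (lowest 0.364, median 0.913). It was highest ventrally, at 3.95 in H5 and 4.03 in H6 (lowest 0.304, median 1.41) and at 3.85 in Ho6 and 2.63 in Ho7 (lowest 0.318, median 0.873). The genes most like it were Pipox, Csta2 and Cd1d1 (r from 0.823 to 0.825).

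Cartpt, the precursor of the CART peptide, had its coronal peak in the partners C6 at 7.33 (lowest 0.987, median 3.14) and Co7 at 9.93 (lowest 0.870, median 3.35). Pair c6 was above the next pair, c11, in both mice, by 0.90 (log2) between the pair means. The second highest values were 4.72 in C10 and 7.62 in Co16. Across the midline it was highest in the partners S5 at 9.58 (lowest 1.44, median 2.19) and So6 at 6.23 (lowest 0.722, median 2.49), with 3.79 in S6 and 3.58 in So1 as the next. In the horizontal series it rose to 7.86 in H6 (lowest 0.812, median 3.07), while in Ho the fractions Ho5 to Ho7 lay between 4.49 and 4.77. The 2 probes of Cartpt had r = 0.994 over the 61 fractions and the same peak fraction in all 6 mice. Among the genes most like Cartpt were Gstm6 (r = 0.731), Esyt3 (r = 0.731) and Slc6a3 (r = 0.709), the dopamine transporter of midbrain neurons, which also peaked in C6 (18.9) and Co7 (10.8).

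Gnrh1, gonadotropin-releasing hormone, was highest in the anterior part of the coronal series. It was at 0.352 in C12, 0.292 in C13 and 0.272 in C10 (lowest 0.0116, median 0.0245), and at 0.345 in Co11, 0.328 in Co14 and 0.196 in Co15 (lowest 0.0177, median 0.0487). In C, fraction C11 between the high ones was at 0.102, and in Co, Co12 was at 0.149. Pairs c12 and c10 overlapped. Across the midline Gnrh1 was at 0.245 in S6 and 0.142 in S5 (lowest 0.0175, median 0.0416) and at 0.248 in So6 and 0.102 in So7 (lowest 0.0110, median 0.0351). In the horizontal series the ventral fractions were 0.199 in H5 and 0.260 in H6 (lowest 0.0152, median 0.0530) and 0.192 in Ho6 and 0.234 in Ho7 (lowest 0.0161, median 0.0344). The probe was dim, with signals from 13.1 to 621 units, and not well above background in S1, So2, So3 and So5. The genes most like it were Prok2 (r = 0.805), a secreted peptide of the suprachiasmatic nucleus and olfactory bulb, Kcna5 (r = 0.779) and Meis2 (r = 0.760).

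The peaks of the 2 mice of a plane were partner fractions in 18 of 30 cases, 4 of 10 genes in the sagittal, 7 in the coronal and 7 in the horizontal plane. Hcrt, Pmch and Cartpt had partner peaks in all 3 planes, and Gal in none. In 16 of the 30 cases both mice had the highest pair above the second pair, and in the others the order of the first 2 pairs is open. Neither count was made for other probes, so neither is set against a share of all probes. Over the 45 pairs of members, r over the 61 fractions ran from 0.359 (Agrp and Gnrh1) to 0.973 with a median of 0.590, and 6 pairs were above 0.8: Avp with Oxt, Hcrt and Pmch, Oxt with Hcrt, Hcrt with Pmch, and Agrp with Ghrh.

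For Avp, Oxt, Hcrt and Pmch, the genes with the most similar profiles overlapped. Sytl4, which encodes granuphilin, a protein of dense-core granules, was among the 3 most like each of these genes and Ghrh, with r from 0.772 for Pmch to 0.908 for Ghrh. It peaked in S5, So7, C8, Co10, H6 and Ho7. Lhx8, well above background in 33 fractions, was the first for Avp (r = 0.804) and the second for Oxt (r = 0.780) on the log2 scale, with r of 0.456 and 0.517 on the linear scale, and its own peaks were in C10 and Co11, 1 fraction or more anterior to those of Avp and Oxt. Nkx2-1, the transcription factor that specifies the ventral hypothalamus, was among the 3 for Oxt, Hcrt and Pmch (r from 0.749 to 0.777). AI467606 was the third for Agrp (r = 0.775).

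The other genes of the peptide system were taken from fixed lists. Of 21 measured other peptides of the hypothalamus, 19 varied over the pairs, 9 were higher and 4 lower ventrally, 9 were higher and 5 lower near the midline, and 11 were higher and 2 lower at the level of the diencephalon. Of all probes tested, 61.3% varied, 6.21% were higher and 4.32% lower ventrally, 7.67% and 6.26% near the midline, and 12.7% and 12% at the level of the diencephalon, and the counts of all lists below stand against these shares. Their median differences were 0.52, 0.32 and 0.50 (log2), against 3.71, 2.03 and 1.50 for the members. The 3 with the largest F were Vip, Pdyn and Tac2. Vip, vasoactive intestinal peptide, was lower ventrally by −0.54 ± 0.15 (log2, SE, adjusted p = 0.0136, limma) and lower near the midline by −0.78 ± 0.12 (adjusted p = 1.55e-05), and higher in c7 to c9 by 1.48 ± 0.11. Pdyn, prodynorphin, was higher ventrally by 1.21 ± 0.16 and in c7 to c9 by 1.62 ± 0.12. Tac2, the neurokinin B precursor, was higher in all 3 contrasts, by 0.52 ± 0.14, 0.49 ± 0.11 and 1.35 ± 0.11. None of these 3 genes had its coronal peak in c7 to c9. Vip peaked in C11 and Co13, and Pdyn in C10 and Co12. Tac2 peaked at the posterior end, at 4.19 in C1 and 4.51 in Co1, against series medians of 0.572 and 0.587.

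Of 14 tested receptors of the members, 9 varied over the pairs, 4 were higher ventrally, 3 near the midline and 7 at the level of the diencephalon, and 0 were lower in any of the 3 contrasts. The share of 9 of 14 that varied is near the 61.3% of all probes. The 12 measured genes of peptide processing and granules did not follow the members: 0 were higher and 3 lower ventrally, 3 were higher and 4 lower near the midline, and 3 were higher and 2 lower in c7 to c9. Pcsk2, the prohormone convertase 2 that cuts many of these precursors, was lower ventrally by −0.39 ± 0.08 (log2, SE, adjusted p = 0.000876, limma) and near the midline by −0.50 ± 0.06, and higher in c7 to c9 by 0.81 ± 0.06. Chgb, chromogranin B of the granules, was lower ventrally by −0.26 ± 0.07 and near the midline by −0.23 ± 0.05. Cadps2, which primes granules for release, was lower by −0.68 ± 0.12 and −0.42 ± 0.10. In c7 to c9 neither Chgb (−0.03 ± 0.05) nor Cadps2 (0.03 ± 0.09) passed the test.

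The 18 measured hypothalamic transcription factors lay nearer to the members: 10 were higher and 1 lower ventrally, 9 were higher near the midline and 11 in c7 to c9, with 0 lower in the last 2, where 6.21%, 7.67% and 12.7% of all probes were higher. Nkx2-1 was well above background in 28 of 61 fractions, Six3 in 38 and Lhx9 in 59, so the fitted differences of the first 2 rest in part on background levels in the low group. Nkx2-1 was higher by 3.71 ± 0.25 (log2, SE) ventrally, 1.82 ± 0.21 near the midline and 3.67 ± 0.19 in c7 to c9. Six3 was higher by 1.73 ± 0.27, 0.93 ± 0.22 and 2.40 ± 0.21. Lhx9, which the thalamus and the lateral hypothalamus both use, was lower ventrally by −1.10 ± 0.28 and higher in the other 2 contrasts by 1.93 ± 0.23 and 1.74 ± 0.21. Sim1 and Otp, which specify the Avp and Oxt neurons, were each well above background in 1 of 61 fractions.

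Markers of tissue beside the hypothalamus were read in the same contrasts. Of 6 measured choroid plexus markers, all 6 were higher in c7 to c9, Folr1 by 2.65 ± 0.23, Kl by 2.02 ± 0.16 and Clic6 by 1.79 ± 0.17 (log2, SE), and 0 were called in the horizontal contrast. Their summed level was highest in C3 and Co4, outside the fractions of the members. Of 8 meningeal markers, 4 were higher ventrally and 8 were lower in c7 to c9, Dcn by −1.02 ± 0.16, Ogn by −0.82 ± 0.16 and Col3a1 by −1.04 ± 0.20. Ventrally, Dcn was higher by 1.01 ± 0.22 and Ogn by 1.10 ± 0.22, while Col3a1 did not pass (0.80 ± 0.26, adjusted p = 0.0501). Of 3 blood markers, Hba-a1, Alas2 and Hbb-bt, 3 were lower in c7 to c9, by −0.95 ± 0.20, −0.94 ± 0.28 and −1.001 ± 0.33. Pitx1 and Tshb were well above background in 25 and 10 fractions. As fitted, Pitx1 was higher near the midline by 1.86 ± 0.56 (adjusted p = 0.0216, limma) and Tshb passed in none of the 3 contrasts. The part of these tissues in the levels of the members was not tested.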

How the data were processed

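RNA from 61 brain fractions of 6 mice was measured on single-colour Agilent whole mouse genome arrays. The authors read the scans with Agilent Feature Extraction 9.1, per the labels, and deposited processed intensity values of each spot, from which the local background had been subtracted, with flags for signals well above background. From these deposited intensities, spots of a probe were averaged, each array was divided by its 75th percentile, and log2 values were fitted with limma 3.58.1 in R 4.3.3. The 36573 probes well above background on at least 1 array were tested, with Benjamini-Hochberg adjustment over all of them and a threshold of 0.05. Of 41174 probes, 22951 were named by 1 gene through their RefSeq accession. The SD between spots of a probe had a median of 0.0637 (log2), and precision is set by how many arrays cover a place, 2 for each pair.

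The main model had the 28 fraction pairs of the study, as its methods use them, with 28 residual degrees of freedom. The mouse difference added the mouse to the pairs. All fractions of a series come from 1 mouse, so mouse is a block: differences within pairs correlated across pairs of a plane with a median r of 0.229 in the sagittal, 0.332 in the coronal and 0.113 in the horizontal plane, and not every correlation was above 0.1. The arrays lay on 16 slides and were scanned on 5 days.

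The text names the 10 members, the 3 detected genes with the largest F of each list of peptides, processing genes, transcription factors and other tissues, and the 3 genes most correlated with each member among probes well above background in at least 10 fractions. Some of the correlated genes are not reported here. Pomc, Gh, Prl, Pou1f1, Sim1 and Otp were named after their values were seen. The members, lists and contrasts were chosen with earlier results of these data known. The alternatives were other scalings, the authors' deposited normalized intensity table, normexp with an offset of 50 on median signals, filters on dim probes, a floor of 5, slide, scan day and mouse as blocks, other pairings, the one-way test without moderation and each array left out in turn. The scripts were tested on simulated data. Promoter windows were from RefSeq on GRCm38.p6, and 8 of the 10 members had one. 0 value columns were left unmapped.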

Additional observations from a re-analysis of the deposited data

Results flagged for a closer look

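In 40 groups of fractions, each 1 gene in 1 mouse with 4 to 10 fractions, 1 value stood apart from the others by Dixon's ratio. It was Agrp in So7, at a relative intensity of 0.223, the highest of the 10 fractions of So, whose gap to the next on the log2 scale was 0.58 of the whole range against a critical value of 0.466. Chance alone sets about 1 in 20 such groups apart, the lowest fraction, So3, was not well above background, and fractions of 1 brain are places rather than replicates.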

How the results depend on the processing

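All 10 members varied over the pairs and were higher ventrally whichever of the 56 arrays was left out (10 to 10 in both), while the count of members higher near the midline ran from 9 to 10, the coronal count from 6 to 7 and the count differing between mice from 0 to 1. Testing only probes well above background on all arrays left 5 members in the test, of which 5 varied, 5 were higher ventrally, 5 near the midline and 4 at the level of the diencephalon. Of all probes tested there, 66.2% varied, and 9.07%, 9.97% and 17.1% were higher in these contrasts in turn. With fractions paired by their own number instead of the pairs of the study, 9 members varied, 2 were higher near the midline and 4 at the level of the diencephalon. The shares of all probes were then 42.2%, 2.4% and 6.63%. With mouse as a replicate block, 10 members varied, 10 were higher ventrally, 10 near the midline and 7 at the level of the diencephalon. The shares of all probes were then 86%, 12.9%, 14.9% and 18.5%. With this block no call changed other than that of Gnrh1 in the coronal contrast (−0.41, adjusted p = 0.022, limma). Gal in the coronal contrast turned to −0.20 (log2, adjusted p = 0.773) with fractions paired by their own number and to −0.41 (adjusted p = 0.0146) with pair c6 added, and the cause was not tested. Cartpt lost its coronal call with normexp (0.31, adjusted p = 0.0976) and with slide as a fixed block (0.56, adjusted p = 0.0983), Agrp lost it with slide as a fixed block (1.33, adjusted p = 0.0717), and Gnrh1 passed as lower with normexp (−0.33, adjusted p = 0.000879). On the linear scale r fell to 0.33 for Avp with Hcrt, 0.34 for Avp with Pmch and 0.38 for Oxt with Hcrt, and was 0.904 for Avp with Oxt. Again 6 pairs were above 0.8 on that scale, but not the same ones. Avp with Agrp was at 0.855, against 0.624 on the log2 scale. Avp with Ghrh was at 0.858, against 0.763, and Oxt with Ghrh at 0.811, against 0.793. The 60 peak fractions were the same under median scaling and in the authors' normalized table, and 55 of 60 were the same without scaling. Agrp, Gnrh1, Avp, Pmch and Trh were not well above background in 1 to 5 fractions, where their levels are bounds.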
